A study of Mus musculus with 12 samples.

Results

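The experiment set arachidonic acid (AA) against its absence in γδ double negative T cells of the mouse liver. It holds 6 of the 12 RNA-seq libraries of the series, 3 with AA and 3 without, chosen by their labels, and every one of 55401 genes was counted in each. All groups came from adult C57BL/6 mice, with no gene alteration named in the labels. Live liver leukocytes were sorted that carried CD45, CD3 and the γδ T cell receptor and lacked CD4, CD8 and NK1.1. The group with AA was stimulated with it for 48 h, at a dose the labels do not give, and the group without AA was not. The labels do not say whether cells without AA spent as long in culture, so AA and time in culture cannot be told apart. They also do not say whether replicates were separate animals, so p-values measure the spread between these libraries, which may be technical. The other 6 libraries, 3 with AA and 3 without, are αβ double negative T cells of the same liver sort. They shared the model and served as a comparison.

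γδ T cells recognise antigen through a receptor of γ and δ chains and can release cytokines such as interleukin 17 soon after stimulation. Those of the liver lie among resident macrophages, dendritic cells and hepatocytes. AA is the membrane fatty acid that cyclooxygenases turn into prostaglandins and lipoxygenases into leukotrienes. It can also be peroxidised, and its products act on receptors such as EP4, the prostaglandin E receptor encoded by Ptger4.

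Levels are given in CPM, a gene's counts as a part of the library's TMM-scaled total, in the order of replicates 1, 2 and 3. Differences are log2 fold changes with AA over without AA, with their standard error (SE), from edgeR's quasi-likelihood test. The libraries with AA held 18301268, 23461265 and 18781074 counts and those without AA 19327567, 24145149 and 20983619. Of the genes, 22107 passed the filter on low counts. Counts are not divided by gene length, so levels of different genes are not compared.

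The receptor genes were read first, as a check of the labels. Trdc, the δ chain constant region, stood at 210.4, 191 and 72.6 CPM with AA, against 271, 262 and 11.8 CPM without AA. The library labelled replicate 3 of γδ cells without AA was far below the other 5. Per count of the CD3 genes, Trdc reached 0.518, 0.352 and 0.230 with AA, against 0.361, 0.427 and 0.0292 without AA. In the αβ libraries the same ratio was 0.358, 0.131 and 0.227 with AA, from 1391, 693 and 1406 CD3 counts, against 0.0178, 0.0243 and 0.354 without AA. Without TMM scaling, Trdc in αβ libraries stood at 55.4, 5.35 and 52.85 CPM with AA, against 3.70, 5.90 and 201.3 CPM without AA. The γδ library labelled replicate 3 without AA had 11.63 CPM on this scale. It went against its label in level and ratio, as did αβ replicates 1 and 3 with AA and 3 without AA. In αβ replicate 2 with AA only the ratio did, and it rests on few CD3 counts. Its Trdc level lay between those of αβ replicates 1 and 2 without AA. All libraries were kept under their labels. The γδ library that went against its label is called replicate 3 without AA below, and results that it moves are given without it too.

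The genes of CD4, CD8 and NK1.1, which the sort excluded, were low in the γδ libraries. Cd4 was at 0, 1.91 and 0 CPM with AA, against 0, 0.409 and 0 CPM without AA. Cd8a, the CD8 α chain, stood at 0, 0 and 0 CPM with AA, against 0, 1.06 and 3.33 CPM without AA. Klrb1c, which encodes NK1.1, stood at 0, 3.98 and 16.2 CPM with AA, against 5.58, 8.1 and 4.53 CPM without AA. Cd8b1 stood at 0, 5.47 and 0.499 CPM with AA, against 3.02, 7.32 and 6.07 CPM without AA. None of these 4 genes exceeded 16.2 CPM in any γδ library. Ptprc, which encodes CD45, had 1238, 1324 and 495 CPM with AA, against 1448, 1620.1 and 1065 CPM without AA. Cd3e, a CD3 chain, had 159, 159 and 71.4 CPM with AA, against 144, 179 and 73.1 CPM without AA. The CD3 genes together took 0.0304% to 0.0683% of counts in the γδ libraries. The αβ receptor constant regions were counted in all 6 libraries too, Trac with 519, 675 and 396 CPM with AA, against 132, 416 and 481 CPM without AA. Trbc1 had 354, 504 and 367 CPM with AA, against 521, 415 and 333 CPM without AA. Trbc2 had 671, 1144 and 845 CPM with AA, against 881, 876 and 979 CPM without AA. The groups overlapped in all 3 genes, and their log2 fold changes were 0.63 ± 0.46, −0.05 ± 0.39 and −0.04 ± 0.38. Together the 3 genes took 0.139% to 0.239% of counts in the γδ libraries. In αβ libraries they took 0.137% to 0.154% without AA and 0.0209% to 0.0567% with AA. These genes thus did not set the γδ libraries apart from the αβ ones without AA, and were higher than in those with AA.

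The edgeR test called 2 genes higher with AA and 0 lower at an adjusted p under 0.05, which is 0.00905% and 0% of the genes tested. Marcks (ENSMUSG00000069662.5), a membrane and actin binding substrate of protein kinase C, rose to 313, 210.3 and 456 CPM with AA, against 37.4, 47.6 and 49.6 CPM without AA. Its lowest library with AA was more than 4 times the highest without AA, with a log2 fold change of 2.86 ± 0.38 and an adjusted p of 0.0347 (edgeR). Cytip (ENSMUSG00000026832.12), a partner of cytohesins that regulates leukocyte adhesion, rose to 1795, 1029 and 1359 CPM with AA, against 311, 398 and 416 CPM without AA. The groups again did not overlap, and the log2 fold change was 1.89 ± 0.25 with an adjusted p of 0.0347 (edgeR). Without replicate 3 without AA the log2 fold changes were 2.89 and 1.93 and neither gene passed, each with an adjusted p of 0.0982 (edgeR). Neither passed either without replicate 1 or 3 with AA or replicate 1 or 2 without AA. In a fit of the γδ libraries alone their adjusted p was 0.0886 and 0.123 (edgeR). With the replicate number as a block it was 0.0758 for each (edgeR). Over all 24 alternatives the adjusted p of Marcks ran from 7.1e-11 by DESeq2 to 0.463 and that of Cytip from 1.5e-09 by DESeq2 to 0.538.

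The number of calls depended on the tool. DESeq2 called 189 genes higher (0.855%) and 90 lower (0.407%). Of these, 79 and 62 had no count in the lower group, and 127 and 31 reached 5 CPM in the higher one. The groups did not overlap in 118 and 46 of them. An unadjusted edgeR p under 0.05 was met by 1600 genes (7.24%), 748 on the higher side (3.38%) and 852 on the lower side (3.85%). In every library with AA 1075 genes were above every library without AA (4.86%) and 1565 were below (7.08%). These 2 shares are the background for the counts of gene lists, where a member above or below in every library is called separated. For list counts at an unadjusted p under 0.05 the background is 3.38% higher and 3.85% lower. A list count near these shares is no more than all genes show. Symbols that share reads with close copies are uncertain, and the sources used here do not give how strands were counted. With 3 libraries against 3, an exact permutation test of 1 gene cannot go below p = 0.10. The median log2 fold change over all genes tested was −0.063.

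**Figure D1:**
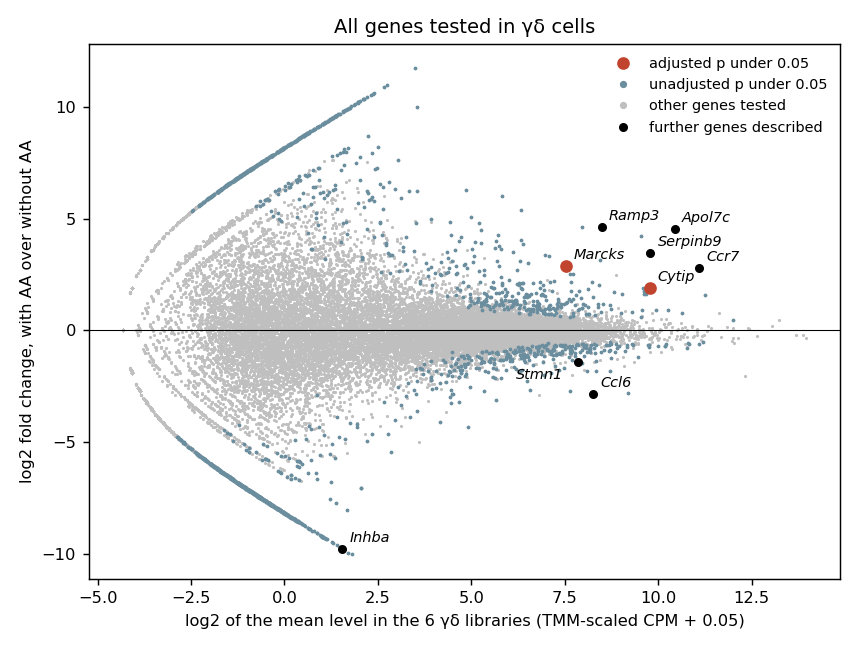
Log2 fold change with AA over without AA in γδ cells (y axis) against the log2 mean level in CPM (x axis), 1 point per gene tested; red marks genes past the adjusted threshold, blue those with an unadjusted p under 0.05, and black further genes described in the text. Marcks and Cytip are the 2 genes past the threshold, and the median of all genes lies at −0.063.

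Besides Marcks and Cytip, the genes of smallest p on the higher side encode proteins of several kinds. They are given with their adjusted p from edgeR, none under 0.05. Ramp3 (ENSMUSG00000041046.7), a partner of the calcitonin receptor-like receptor, stood at 934, 473 and 658 CPM with AA, against 23.3, 38.4 and 23.2 CPM without AA (log2 fold change 4.60 ± 0.71, adjusted p 0.105). Ccr7 (ENSMUSG00000037944.8), the chemokine receptor that leads leukocytes to lymph nodes, stood at 4865, 2534 and 4148 CPM with AA, against 366, 877 and 430.0 CPM without AA (2.79 ± 0.44, 0.105). Serpinb9 (ENSMUSG00000045827.10), an inhibitor of granzyme B, stood at 2037, 1093 and 1751 CPM with AA, against 149, 217 and 79.4 CPM without AA (3.45 ± 0.56, 0.105). The groups did not overlap in any of these 3 genes, and replicate 2 was the lowest library with AA in each.

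Sema6d (ENSMUSG00000027200.17), a transmembrane semaphorin, had 46.8, 26.7 and 51.6 CPM with AA, against 0.342, 2.13 and 1.83 CPM without AA, a log2 fold change of 4.85 ± 0.80 with an adjusted p of 0.105 (edgeR). Dennd5a (ENSMUSG00000035901.14), an exchange factor for Rab GTPases, had 218, 194 and 165 CPM with AA, against 65.9, 60.9 and 36.7 CPM without AA (1.82 ± 0.31). Mmp25 (ENSMUSG00000023903.8), a membrane-anchored metalloproteinase, had 435, 220.0 and 345 CPM with AA, against 61.7, 51.2 and 30.1 CPM without AA (2.81 ± 0.49). Prr5l (ENSMUSG00000032841.15), which binds the mTORC2 kinase complex, had 375, 105 and 263 CPM with AA, against 25, 34.3 and 15.2 CPM without AA (3.32 ± 0.59). The adjusted p of the last 3 was 0.113 (edgeR). Etv3 (ENSMUSG00000003382.18), an ETS family repressor of transcription, had 617, 288 and 567 CPM with AA, against 79.6, 84 and 166 CPM without AA (2.16 ± 0.38, adjusted p 0.113, edgeR). Samsn1 (ENSMUSG00000022876.18), an adaptor of haematopoietic cells, had 1348, 744 and 1532 CPM with AA, against 302, 420.5 and 352 CPM without AA (1.75 ± 0.32, adjusted p 0.131, edgeR). Tex14 (ENSMUSG00000010342.16), known from the intercellular bridges of germ cells, had 20.6, 8.42 and 40.8 CPM with AA, against 0, 0 and 0.0482 CPM without AA. The 3 libraries without AA held 1 Tex14 count in all, and the ratio of summed counts was 1400.0 (95% counting interval 251 to 55300.0). Apol7c (ENSMUSG00000044309.8), an apolipoprotein L gene with close relatives in the mouse, had 2935, 1699.7 and 3393 CPM with AA, against 99.6, 184 and 60 CPM without AA (4.55 ± 0.87, adjusted p 0.162, edgeR).

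The 12 genes of smallest p on the higher side were all among the DESeq2 calls. The chosen rule required that their groups not overlap. Replicate 2 was the lowest library with AA in 11 of the 12, and replicate 1 was the highest in 8. In αβ cells 5 of the 12 had a log2 fold change above 0. When the libraries labelled replicate 3 without AA of both populations were left out, 26018 genes passed the filter and 5 were called higher (0.0192%), Marcks, Ramp3, Ccr7, Serpinb9 and Apol7c.

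**Figure D2:**
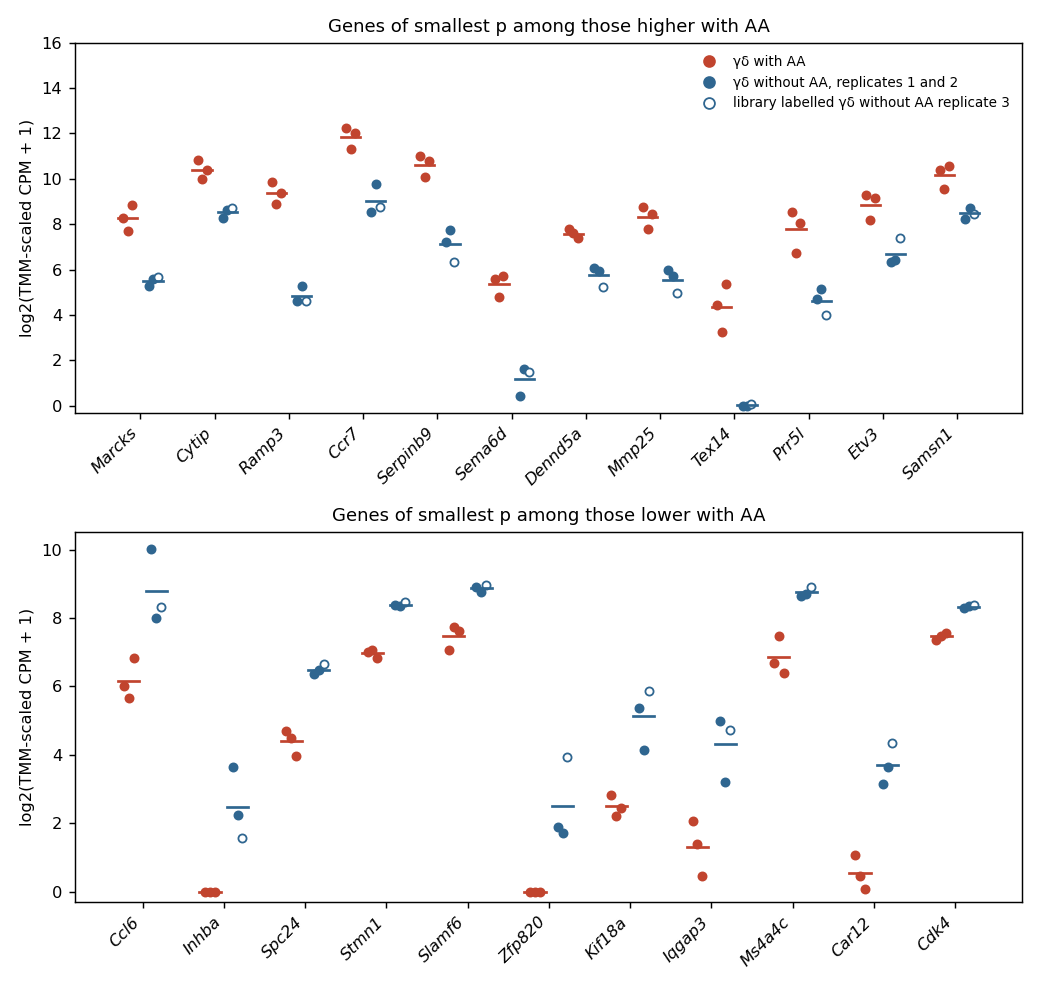
Levels as log2(CPM + 1) (y axis) of the genes of smallest p in each direction, 1 point per γδ library, with AA left of without AA; bars are means of the log2 values and open circles mark the library labelled replicate 3 of γδ cells without AA. In each gene shown, the groups do not overlap.

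The promoters of Cytip and Ramp3 are shown because Cytip is 1 of the 2 genes called and Ramp3 has the next smallest p. Those of Serpinb9 and Apol7c were searched too, held 0 matches to the motifs below and are not printed. The sequences come from RefSeq (GRCm38.p6) and run from 250 bases before to 50 after the start of the gene. Capitals mark matches to 4 motifs searched on both strands, the κB decamer by its name, AP-1 (TGANTCA), the ETS-IRF composite element (GGAA, 2 further bases and GAAA) and E2F (TTTNNCGC). Cytip lies at chr2:58160073-58160372, minus strand, and Ramp3 at chr11:6658283-6658582, plus strand.
Cytip: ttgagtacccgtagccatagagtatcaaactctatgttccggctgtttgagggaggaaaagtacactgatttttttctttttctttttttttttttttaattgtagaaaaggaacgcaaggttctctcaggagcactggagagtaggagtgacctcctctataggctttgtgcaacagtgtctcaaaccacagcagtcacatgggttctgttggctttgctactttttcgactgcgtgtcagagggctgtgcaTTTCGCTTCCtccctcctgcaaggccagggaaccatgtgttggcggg
Ramp3: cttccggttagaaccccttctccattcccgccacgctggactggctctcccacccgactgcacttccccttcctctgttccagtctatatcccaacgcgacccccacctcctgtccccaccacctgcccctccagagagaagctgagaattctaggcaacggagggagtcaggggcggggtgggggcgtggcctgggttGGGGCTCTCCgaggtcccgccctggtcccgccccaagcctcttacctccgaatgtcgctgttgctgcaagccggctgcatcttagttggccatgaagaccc
The capitals in Cytip are an ETS-IRF composite match at 4 bases after the start, read on the opposite strand, and those in Ramp3 a κB decamer starting 51 bases before it. Of 32851 mouse promoters of this length, 2.72% held the ETS-IRF composite, 8.46% the κB decamer, 7.81% AP-1 and 5.17% E2F. Of 27025 genes with an entry, 3.16% held the ETS-IRF composite in at least 1 promoter, 9.55% the κB decamer, 8.97% AP-1 and 5.93% E2F. Of the 12 genes on the higher side, 10 had an entry, and of these Cytip, Mmp25, Prr5l and Samsn1 held the ETS-IRF composite, Mmp25 and Ramp3 the κB decamer, Tex14 E2F and 0 AP-1. Of the 12 on the lower side, 9 had an entry, and Kif18a alone held a match, to E2F. A match describes the letters and not a bound site.

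On the lower side no gene was called by edgeR. The 12 genes of smallest p there had adjusted p-values up to 0.635 (edgeR), and DESeq2 called all 12. Ccl6 (ENSMUSG00000018927.3), a CC chemokine of myeloid cells, stood at 63.1, 49.9 and 112 CPM with AA, against 1033, 255 and 321 CPM without AA (log2 fold change −2.84 ± 0.50, adjusted p 0.113, edgeR). Without replicate 2 without AA it was the 1 gene called lower. Inhba (ENSMUSG00000041324.14), the βA subunit of activins and inhibins, had 0, 0 and 0 CPM with AA, against 11.6, 3.72 and 1.98 CPM without AA. Against a floor of 3 counts over the group with AA, Inhba was at least 105-fold lower. Zfp820 (ENSMUSG00000069743.5), a zinc finger gene, had 0, 0 and 0 CPM with AA, against 2.68, 2.29 and 14.4 CPM without AA and was at least 126-fold lower by the same floor.

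Several of the other genes on the lower side serve cell division. Spc24 (ENSMUSG00000074476.6), a subunit of the kinetochore NDC80 complex, stood at 25.1, 21.6 and 14.7 CPM with AA, against 80.6, 88.8 and 99.3 CPM without AA (−2.13 ± 0.46). Stmn1 (ENSMUSG00000028832.11), which destabilises microtubules, stood at 128, 133 and 112 CPM with AA, against 332, 324 and 350.3 CPM without AA (−1.43 ± 0.32). Kif18a (ENSMUSG00000027115.14), a mitotic kinesin, stood at 6.13, 3.65 and 4.49 CPM with AA, against 40.1, 16.7 and 57.1 CPM without AA (−3.00 ± 0.71). Iqgap3 (ENSMUSG00000028068.14), a scaffold linked to proliferation, stood at 3.2, 1.62 and 0.388 CPM with AA, against 30.6, 8.3 and 25.4 CPM without AA (−3.62 ± 0.86). Cdk4 (ENSMUSG00000006728.12), the kinase of early G1, stood at 164, 177 and 186 CPM with AA, against 311, 325 and 329 CPM without AA (−0.87 ± 0.23). The groups did not overlap in any of these 5 genes, and the libraries of each group lay closest together in Stmn1 and Cdk4.

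Genes of membrane proteins were also on the lower side. Slamf6 (ENSMUSG00000015314.10), a SLAM family receptor, had 132, 214 and 194 CPM with AA, against 478, 431 and 497 CPM without AA (−1.38 ± 0.31). Ms4a4c (ENSMUSG00000024675.19), a four-pass membrane protein of the MS4A family, had 103, 176 and 82.8 CPM with AA, against 395, 417 and 478 CPM without AA (−1.84 ± 0.45). Car12 (ENSMUSG00000032373.15), a membrane carbonic anhydrase, had 1.1, 0.373 and 0.0554 CPM with AA, against 7.92, 11.6 and 19.3 CPM without AA, a ratio of summed counts of 0.0389 (95% counting interval 0.026 to 0.0559). Replicate 3 without AA was the highest library without AA in 9 of the 12 genes of smallest p on the lower side, and their log2 fold changes without it were below 0 in each of the 12.

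The list of genes known from mature dendritic cells held 20 separated members, all of them higher with AA. These are genes that dendritic cells raise when they mature and move to lymph nodes. T cells can express several of them as well, among them Ccr7, Relb, Birc3, Traf1, Serpinb9 and Ccl5. Of its 26 members, 20 were higher in every library with AA (all genes 4.86%) and 0 were lower (all genes 7.08%). This list and the others were chosen with earlier results of these data known, so such counts are descriptions and not tests. At an unadjusted p under 0.05, 18 were higher and 0 lower, DESeq2 called 13 higher and 0 lower, and edgeR called 0, with a smallest adjusted p of 0.105. The median log2 fold change was 1.83, and 1.82 without replicate 3 without AA. The members summed to 2.08, 1.22 and 1.74% of counts with AA, against 0.256, 0.399 and 0.331% without AA. In αβ cells the sum was 0.5, 0.425 and 0.327% with AA and 0.376, 0.45 and 0.619% without AA, and the median log2 fold change −0.50.

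The receptors and ligands for T cells in this list differed in how far apart the groups lay. Cd40, the costimulatory receptor of antigen presenting cells, stood at 294, 175 and 264 CPM with AA, against 59.3, 47.6 and 49.6 CPM without AA (log2 fold change 2.23 ± 0.47). Cd80, a ligand of CD28 and CTLA-4, stood at 144, 74 and 64.2 CPM with AA, against 19.5, 10.6 and 8.68 CPM without AA (2.86 ± 0.62). Cd86, the related ligand, stood at 249, 88.3 and 94.9 CPM with AA, against 58, 68.8 and 46.4 CPM without AA (1.32 ± 0.49), and replicate 1 with AA was far above the other 2. Cd274, which encodes PD-L1, stood at 183, 61.8 and 78.9 CPM with AA, against 95.3, 68.4 and 45.6 CPM without AA (0.63 ± 0.43), and its groups overlapped. Cd83, a surface marker of maturation, was at 951, 757 and 1059 CPM with AA, against 282, 528 and 962 CPM without AA, where replicate 3 without AA lay within the range with AA. Pdcd1lg2, which encodes PD-L2, was level at 20.6, 26.2 and 14.6 CPM with AA, against 21, 24.9 and 14.9 CPM without AA.

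Fscn1, the actin bundler of dendritic protrusions, stood at 2470.5, 591 and 1189 CPM with AA, against 50.2, 153 and 26.4 CPM without AA (4.21 ± 1.00). Relb, an NF-κB subunit, stood at 150.3, 83.2 and 80.8 CPM with AA, against 44.8, 52.7 and 23.7 CPM without AA (1.38 ± 0.41). Birc3, a ubiquitin ligase that inhibits cell death, stood at 473, 300.3 and 587 CPM with AA, against 271, 217 and 287 CPM without AA (0.81 ± 0.28). Ccl5, a chemokine of T cells and other leukocytes, stood at 186, 168 and 181 CPM with AA, against 78.1, 64.9 and 30.7 CPM without AA (1.62 ± 0.68). All 4 had every library with AA above every library without.

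Further members were chosen for mention after their values were seen. Cacnb3, a calcium channel subunit, had 765, 302 and 375 CPM with AA, against 9.23, 33.8 and 14.8 CPM without AA (4.64 ± 1.03). Socs2, a suppressor of cytokine signalling, had 71.9, 37.2 and 83.8 CPM with AA, against 3.3, 6.83 and 2.36 CPM without AA (3.95 ± 0.81). Ccl22, a chemokine for CCR4, had 1594, 1181 and 907 CPM with AA, against 215, 517 and 265 CPM without AA (1.88 ± 0.40). Serpinb6b, a serpin with close relatives, had 784, 447 and 430.2 CPM with AA, against 116, 138 and 154 CPM without AA (2.03 ± 0.51). Tmem123 had 899, 1034 and 1785 CPM with AA, against 347, 279 and 560.0 CPM without AA. Anxa3 had 337, 230.1 and 382 CPM with AA, against 159, 78.4 and 39.9 CPM without AA. Nudt17 had 59.1, 34.7 and 60.8 CPM with AA, against 2.79, 9.77 and 9.45 CPM without AA. Traf1, an adaptor of TNF receptors, had 615, 396 and 489 CPM with AA, against 346, 312 and 185 CPM without AA. Il12b, the p40 chain of interleukins 12 and 23, had 41.6, 30.3 and 43.5 CPM with AA, against 0, 8.38 and 5.3 CPM without AA. A further 3 members were low in all libraries. Il4i1 had 0, 3.11 and 0 CPM with AA, against 0.74, 1.06 and 8.24 CPM without AA. Ccl17 had 1.99, 0.58 and 1.11 CPM with AA, against 1.65, 2.17 and 1.21 CPM without AA. Tnfrsf4 had 0.883, 3.44 and 8.26 CPM with AA, against 0.399, 2.37 and 11.8 CPM without AA. In the 20 separated genes replicate 2 was the lowest library with AA in 15, and replicate 1 was the highest in 13.

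**Figure D3:**
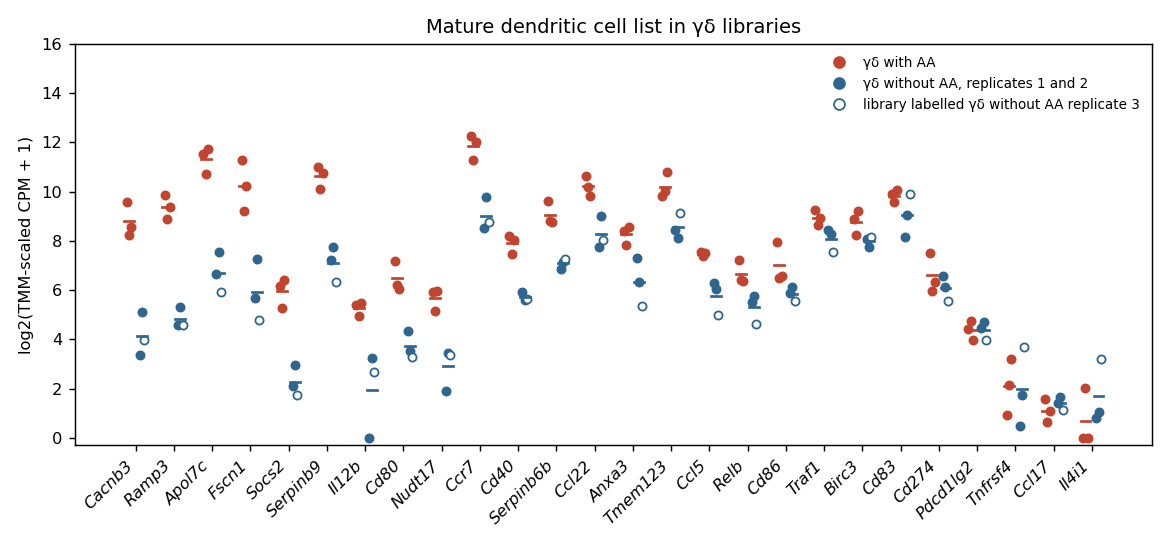
Levels as log2(CPM + 1) (y axis) of genes of the mature dendritic cell list, 1 point per γδ library, with AA left of without AA; bars are means of the log2 values and open circles mark the library labelled replicate 3 of γδ cells without AA. The library sums of the list were 1.22% to 2.08% of counts with AA and 0.256% to 0.399% without AA.

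Markers of dendritic cells outside the maturation list lay on both sides. Of 15 members, 3 were higher in every library with AA and 1 was lower. With an unadjusted p under 0.05, 3 were higher and 0 lower, and DESeq2 called 2 higher. The median was −0.32, and 0.13 without replicate 3 without AA. Flt3, the growth factor receptor of dendritic cell precursors, stood at 58.2, 36.2 and 90.3 CPM with AA, against 8.26, 7.89 and 2.36 CPM without AA (3.32 ± 1.09). Zbtb46, a transcription factor of classical dendritic cells, stood at 53.6, 40.7 and 12.1 CPM with AA, against 7.29, 4.54 and 5.78 CPM without AA (2.59 ± 0.78). Batf3, which the Xcr1 type needs and T cells also express, stood at 22.6, 18.2 and 23 CPM with AA, against 7.12, 4.05 and 1.45 CPM without AA (2.34 ± 1.14). Cd209a was at 0, 0 and 4.43 CPM with AA, against 0, 0 and 0 CPM without AA. Clec9a, a receptor of the Xcr1 type, stood at 0, 0 and 0 CPM with AA, against 0.342, 0 and 0 CPM without AA. Clec9a, Itgax, H2-Aa and Xcr1 were chosen for mention after their values were seen. Itgax, which encodes CD11c, was at 4.42, 3.36 and 0.0554 CPM with AA, against 13.8, 7.85 and 14 CPM without AA, every library with AA below every library without. H2-Aa, of antigen presentation, was at 1102, 1520.2 and 1364 CPM with AA, against 1044, 1632 and 3363 CPM without AA. Xcr1 was at 6.57, 7.46 and 7.81 CPM with AA, against 4.9, 3.48 and 7.28 CPM without AA. The list summed to 0.362, 0.546 and 0.418% of counts with AA, against 0.297, 0.552 and 1.04% without AA. The groups overlapped in this sum, which was highest in replicate 3 without AA. The part of dendritic cells in the mature list was not tested, and in bulk libraries more cells of a type and more RNA per cell cannot be told apart.

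Markers of other cell types were present in every library although the sort selected CD3. For B cells 0 of 14 members were higher and 3 lower in every library with AA, the median was −1.39, and −0.67 without replicate 3 without AA. DESeq2 called 1 lower, and 4 were lower at an unadjusted p under 0.05. The list summed to 0.217, 0.499 and 0.221% of counts with AA, against 0.265, 0.504 and 1.61% without AA, so replicate 3 without AA held the most. Ighd, the heavy chain of IgD, was at 110.5, 237 and 94.9 CPM with AA, against 329, 536 and 2218 CPM without AA. Ms4a1, which encodes CD20, was at 99.6, 330.0 and 120.5 CPM with AA, against 208, 423 and 1316 CPM without AA. Fcer2a, a low affinity IgE receptor, was at 48.3, 112 and 0.665 CPM with AA, against 113, 212 and 721 CPM without AA.

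The macrophage and monocyte list had 0 of 24 members higher and 2 lower in every library with AA, with a median of −0.65, or −0.90 without replicate 3 without AA, when 9 were lower (all genes 11.4%). Without replicate 1 without AA the median was on the other side of 0, at 0.15. DESeq2 called 0, and 2 were lower at an unadjusted p under 0.05. Its sum was 1.66, 1.19 and 2.92% of counts with AA, against 4.5, 1.68 and 0.716% without AA. Lyz2, the lysozyme of myeloid cells, was at 11685, 8046 and 22860.0 CPM with AA, against 38582, 11092 and 3667 CPM without AA, and replicate 1 without AA held the most. Marco, a scavenger receptor of macrophages, was at 0.883, 0 and 0.0554 CPM with AA, against 29, 5.48 and 7.37 CPM without AA. Msr1, another scavenger receptor, was at 18.6, 10.9 and 23.8 CPM with AA, against 183, 34.8 and 10.8 CPM without AA. C1qb, a complement chain of resident macrophages, was at 0.497, 0.788 and 0.942 CPM with AA, against 58.7, 12.1 and 0 CPM without AA. Plac8 stood at 211, 185 and 204 CPM with AA, against 445, 236 and 342 CPM without AA. Clec4f, a marker of Kupffer cells, was below the filter.

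The neutrophil list had a median of 2.02, and 1.77 without replicate 3 without AA. With the replicate number as a block it was 0.73. Of 14 members 5 were higher and 0 lower in every library with AA (all genes 4.86% and 7.08%). By an unadjusted p under 0.05, 3 were higher, and DESeq2 called 0. Its sum was 0.305, 0.198 and 0.47% of counts with AA, against 0.182, 0.186 and 0.038% without AA. Ltf, lactoferrin, was at 66.6, 82.8 and 533 CPM with AA, against 12.5, 45.9 and 6.65 CPM without AA. Ngp, a granule protein, was at 395, 453 and 1521 CPM with AA, against 138, 231 and 53.4 CPM without AA. Lcn2, lipocalin 2, stood at 14.7, 9.78 and 72.3 CPM with AA, against 4.33, 5.32 and 1.83 CPM without AA. Ly6g, the surface marker, was at 0, 0.456 and 17.4 CPM with AA, against 0, 0.0409 and 0 CPM without AA. In all 5 separated members replicate 3 with AA was the highest library.

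For mast cells and basophils 0 of 10 were higher and 2 lower in every library with AA, and the median was −1.01, against 0.19 without replicate 3 without AA. At an unadjusted p under 0.05, 1 was higher and 2 lower, and DESeq2 called 0. Its sum was 0.102, 0.0513 and 0.0527% of counts with AA, against 0.0227, 0.0776 and 0.239% without AA. Kit, the stem cell factor receptor, was at 357, 92.9 and 245 CPM with AA, against 83.3, 85.3 and 95.2 CPM without AA. Mcpt8, a basophil protease, was at 82.7, 60.5 and 31.2 CPM with AA, against 28.2, 142 and 489.7 CPM without AA. Ms4a2, a chain of the IgE receptor, was at 9.77, 6.59 and 0.111 CPM with AA, against 11.2, 20.9 and 87.3 CPM without AA. Fcer1a, another chain, was at 0.276, 4.1 and 8.09 CPM with AA, against 4.73, 4.29 and 53.5 CPM without AA.

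In the plasma cell list 1 of 8 was higher and 1 lower in every library with AA (median −0.33), with 1 lower at an unadjusted p under 0.05. Ighg1, an IgG heavy chain, was at 0, 0.539 and 0 CPM with AA, against 10.3, 2.78 and 2.7 CPM without AA. Prdm1, which encodes Blimp-1, stood at 23, 27.3 and 62.9 CPM with AA, against 16.7, 19.6 and 3.47 CPM without AA. Sdc1, syndecan 1, stood at 69, 92.8 and 46.8 CPM with AA, against 139, 72.8 and 120.4 CPM without AA. Iglc1, a light chain constant region, stood at 0.497, 1.45 and 0.388 CPM with AA, against 2.11, 1.35 and 6.75 CPM without AA. In the NK cell list 0 of 11 were separated (median −0.20). Klra4 was at 1.77, 2.28 and 0 CPM with AA, against 0.114, 0 and 0 CPM without AA. Klre1 stood at 7.07, 4.52 and 22.1 CPM with AA, against 18.9, 17.9 and 25 CPM without AA. Ncr1, which encodes NKp46, stood at 0, 2.11 and 0.0554 CPM with AA, against 3.93, 4.87 and 0 CPM without AA. Klra8 was at 0.221, 0 and 0 CPM with AA, against 0, 0 and 0.868 CPM without AA.

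In the hepatocyte list 0 of 9 were separated (median −0.01), with 1 lower at an unadjusted p under 0.05. Mup3 was at 0, 0 and 0 CPM with AA, against 0.911, 0 and 1.35 CPM without AA. Ttr, transthyretin, stood at 0, 0 and 0 CPM with AA, against 0, 0.123 and 2.31 CPM without AA. Apoa1 stood at 0, 0 and 0 CPM with AA, against 0, 0 and 0.868 CPM without AA. Fgb, a fibrinogen chain, stood at 0, 0.871 and 1.44 CPM with AA, against 0, 0 and 0.145 CPM without AA. In the endothelial and stellate list 0 of 11 were higher and 1 lower in every library with AA (median −0.90, or −0.41 with genes that had no count in 1 group set to the fold a floor of 3 counts allows). Stab1, stabilin 1, was at 12.2, 10.3 and 0.665 CPM with AA, against 81.9, 26.9 and 1.98 CPM without AA. Cdh5, Rgs5 and Col1a1 had at most 1.21 CPM in any γδ library. Over the 42 lists, 17 members had no count in 1 group, and the medians of the other 41 lists were the same to 2 decimals at such bounds.

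The erythroid list, 4 genes tested, had a median of 1.49, and −1.73 without replicate 3 with AA. Hbb-bs was at 0, 0.0415 and 7.37 CPM with AA, against 0.114, 0.0818 and 0.723 CPM without AA. Hba-a1 stood at 0, 0.0415 and 2.88 CPM with AA, against 0.114, 0.491 and 0.627 CPM without AA. Alas2 stood at 0.663, 0 and 0 CPM with AA, against 0.057, 0.123 and 0 CPM without AA. The platelet list, 5 genes tested, had a median of 1.19, 0.55 without replicate 3 without AA and −0.67 with a filter of 5 CPM in 3 libraries. Pf4, platelet factor 4, was at 4.25, 4.06 and 35 CPM with AA, against 98, 9.77 and 4.82 CPM without AA. Treml1 stood at 1.77, 1.04 and 0 CPM with AA, against 0, 0 and 0 CPM without AA. Gp9 stood at 0, 0.0415 and 5.04 CPM with AA, against 0, 0.0409 and 0 CPM without AA. Ppbp stood at 1.66, 0.954 and 3.93 CPM with AA, against 2.34, 0.532 and 0 CPM without AA. Neither list had a separated member, and 2 platelet genes were higher at an unadjusted p under 0.05. DESeq2 called 0 members of the plasma cell, NK cell, hepatocyte, endothelial and stellate, erythroid and platelet lists. The sums of the B cell, macrophage and mast cell lists overlapped between the groups, and that of the neutrophil list did not. Their part in the gene differences was not tested.

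**Figure D4:**
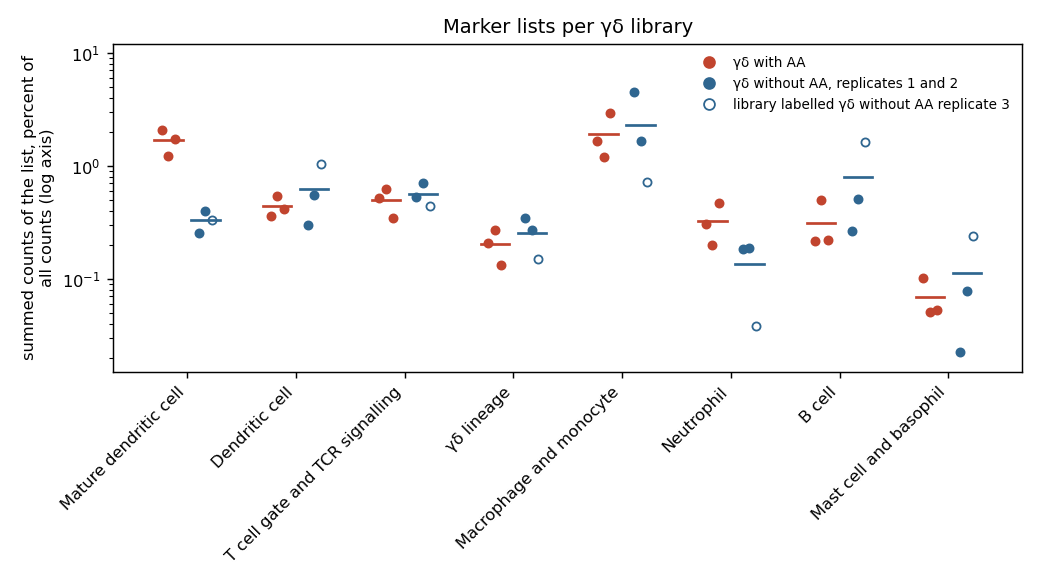
Summed share of all counts in percent on a log axis (y axis) for marker lists, 1 point per γδ library, with AA left of without AA; bars are arithmetic means and open circles mark the library labelled replicate 3 of γδ cells without AA. The mature dendritic cell list separates the γδ groups at 1.22% to 2.08% and 0.256% to 0.399%, and the B cell and macrophage lists overlap.

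NF-κB is the family of transcription factors that costimulatory and TNF receptors activate, and its targets include its own inhibitors. Of the 28 genes of this list, 11 were higher in every library with AA and 1 was lower (all genes 4.86% and 7.08%). With an unadjusted p under 0.05, 10 were higher and 0 lower, and DESeq2 called 4 higher. The median was 0.59, and 0.64 without replicate 3 without AA, when 15 of the 28 were higher (all genes 6.75%). Rel, the c-Rel subunit, stood at 548, 313 and 441 CPM with AA, against 89.6, 185 and 85 CPM without AA (1.86 ± 0.37). Map3k14, the kinase NIK of the noncanonical branch, stood at 232, 72.6 and 98 CPM with AA, against 28.4, 57.2 and 44.5 CPM without AA (1.63 ± 0.49). Relb, the subunit of the same branch, is given above. Birc2, a ubiquitin ligase close to Birc3, stood at 275, 119 and 268 CPM with AA, against 121, 87.5 and 79.6 CPM without AA (1.20 ± 0.39), with a slight overlap. In αβ cells the median of the list was −0.59.

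The promoter of Rel is shown because Rel has the smallest p of the NF-κB list and its window holds κB letters. It lies at chr11:23770920-23771219, minus strand.
Rel: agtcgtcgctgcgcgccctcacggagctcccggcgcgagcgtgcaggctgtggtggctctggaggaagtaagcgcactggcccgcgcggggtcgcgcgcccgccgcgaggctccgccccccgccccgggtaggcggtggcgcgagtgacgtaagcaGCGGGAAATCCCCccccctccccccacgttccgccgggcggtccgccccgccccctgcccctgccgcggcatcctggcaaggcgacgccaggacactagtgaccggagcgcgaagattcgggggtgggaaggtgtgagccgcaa
The capitals hold overlapping κB decamers on both strands, the first starting 92 bases before the start. An E2F match overlaps them and begins slightly further upstream. Of the 28 genes 23 had a promoter entry, and of these 9 held a κB decamer, Bcl3, Nfkb2, Nfkbia, Nfkbid, Nfkbie, Rel, Tnfaip2, Tnfaip3 and Tnip1. AP-1 was held by 7, E2F by 3 and the ETS-IRF composite by 1. Of the mature dendritic cell list 18 had an entry, and the κB decamer was held by Pdcd1lg2 and Ramp3, AP-1 by Cd80, E2F by Traf1 and the ETS-IRF composite by 0.

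Costimulatory ligands and receptors had 5 of 18 members higher and 0 lower in every library with AA (median 0.51). By an unadjusted p under 0.05, 4 were higher, and DESeq2 called 2. Beside Cd40, Cd80 and Cd86, Icosl, the ligand of ICOS, stood at 47.8, 21.2 and 71.3 CPM with AA, against 13.8, 15.4 and 16.8 CPM without AA (1.61 ± 0.67). Of the apoptosis list 5 of 25 were higher and 1 lower (median 0.38), with 4 higher at an unadjusted p under 0.05 and 1 DESeq2 call. Cdkn1a, the p21 inhibitor of cyclin dependent kinases, stood at 275, 108 and 195 CPM with AA, against 61.5, 64.1 and 16.6 CPM without AA (2.03 ± 0.51). Pmaip1, the proapoptotic NOXA, stood at 514, 174 and 287 CPM with AA, against 67.1, 62.3 and 19 CPM without AA (2.71 ± 1.13). Among early response genes 2 of 22 were higher and 1 lower (median 0.35), with 1 on each side at an unadjusted p under 0.05 and 1 DESeq2 call. Dusp5, a phosphatase of ERK, stood at 46.3, 27.7 and 44.8 CPM with AA, against 2.68, 5.93 and 5.35 CPM without AA (3.09 ± 0.79). Myc, the growth regulator, stood at 163, 158 and 90.3 CPM with AA, against 209.9, 383 and 305 CPM without AA (−1.13 ± 0.33), every library with AA below every library without. Junb, an AP-1 subunit, stood at 730.4, 362 and 427 CPM with AA, against 343, 459.6 and 239 CPM without AA. Nr4a2, an orphan nuclear receptor, stood at 154, 36.7 and 47.3 CPM with AA, against 16.9, 69.8 and 8.53 CPM without AA, and the groups overlapped in each.

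In the list of migration and adhesion genes Marcks and Cytip were the 2 edgeR calls among 31. Of its members 9 were higher and 3 lower in every library with AA. DESeq2 called 4 higher and 2 lower, and 4 and 2 met an unadjusted p under 0.05. The median was 0.26, and 0.01 without replicate 3 without AA. Ccr6, the receptor of CCL20, stood at 117, 243 and 111 CPM with AA, against 77.4, 93.9 and 107 CPM without AA (0.76 ± 0.41).

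The list of lipid peroxidation and NRF2 holds genes that handle lipid peroxides and targets of NRF2, the transcription factor that answers oxidants. Of 21 members 9 were higher and 0 lower in every library with AA (all genes 4.86% and 7.08%). The same number met an unadjusted p under 0.05, DESeq2 called 3 higher, and edgeR called 0. The median was 0.97, and 0.62 without replicate 3 without AA. The list summed to 2.01, 1.69 and 3.72% of counts with AA, against 3.72, 1.45 and 1.07% without AA, and the groups overlapped in this sum. Sqstm1, the p62 autophagy adaptor, stood at 3532, 2326 and 5150.0 CPM with AA, against 1503, 1304 and 889 CPM without AA (log2 fold change 1.57 ± 0.30, adjusted p 0.162, edgeR). Nqo1, a quinone reductase, stood at 91.8, 63.1 and 267 CPM with AA, against 29.2, 10.3 and 9.88 CPM without AA (3.09 ± 0.80). Gclc, the catalytic subunit of glutathione synthesis, stood at 41.4, 70 and 132 CPM with AA, against 35.5, 20.2 and 19.4 CPM without AA (1.69 ± 0.53). Txnrd1, thioredoxin reductase, stood at 237, 175 and 365 CPM with AA, against 117, 91.8 and 119 CPM without AA (1.25 ± 0.41). In the 9 separated genes replicate 3 with AA was the highest library in 8 and replicate 2 the lowest with AA in 8. Hmox1, haem oxygenase, named here after its values were seen, overlapped at 856, 574 and 2026 CPM with AA, against 1566, 277 and 180.0 CPM without AA. In αβ cells the median of the list was 0.41.

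Heat shock genes had 2 of 14 members higher and 1 lower in every library with AA (median 0.22). At an unadjusted p under 0.05 and by DESeq2 the count was 0. Hspe1, the mitochondrial cochaperonin, stood at 48, 48.5 and 86.7 CPM with AA, against 186, 94.9 and 104 CPM without AA (−1.07 ± 0.51). Hspa1a, an HSP70 gene whose counts may be split with its near-identical copy, stood at 6.18, 0 and 81.1 CPM with AA, against 2.05, 0.695 and 0.289 CPM without AA. The copy, Hspa1b, stood at 0, 0.622 and 13.8 CPM with AA, against 0.057, 0 and 0.434 CPM without AA. Most of their counts lay in replicate 3 with AA. Hspb1, HSP27, stood at 1.44, 5.1 and 13.2 CPM with AA, against 0, 1.02 and 0.868 CPM without AA.

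Among the receptors for prostanoids and leukotrienes, 2 of 11 genes tested were higher and 1 lower in every library with AA (median 0.08, and −0.41 without replicate 3 without AA). With an unadjusted p under 0.05, 2 were higher, and DESeq2 called 1 higher. Ptger4, the EP4 receptor of prostaglandin E2, stood at 226, 70.9 and 79.1 CPM with AA, against 15.5, 40.3 and 29.4 CPM without AA (log2 fold change 2.14 ± 0.51, adjusted p 0.431, edgeR). Replicate 1 with AA was far above the others. Gpr132, a receptor reported to bind oxidised fatty acids, stood at 255, 174 and 126 CPM with AA, against 109.6, 74.8 and 34.3 CPM without AA (1.34 ± 0.45). Tbxa2r, the thromboxane receptor, stood at 13.4, 21.7 and 0.111 CPM with AA, against 42.8, 50.8 and 26.6 CPM without AA. Ptgfr had counts in replicate 1 with AA only, at 1.99, 0 and 0 CPM with AA, against 0, 0 and 0 CPM without AA. A further 5 receptors were below the filter.

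Genes that release AA or turn it into eicosanoids showed little separation. Of 26 tested, 0 were higher and 1 lower in every library with AA (median −0.11), and 0 met an unadjusted p under 0.05 or were called by DESeq2. Ephx1, an epoxide hydrolase, stood at 89.4, 152 and 80.6 CPM with AA, against 153, 177 and 234 CPM without AA (−0.80 ± 0.40). Ephx2, the soluble one, stood at 0, 2.11 and 0 CPM with AA, against 0, 0 and 0 CPM without AA. Tbxas1, thromboxane synthase, stood at 32.8, 6.51 and 5.04 CPM with AA, against 90, 29.7 and 22.3 CPM without AA. Pla2g6, a calcium independent phospholipase, stood at 16.9, 15.5 and 97.9 CPM with AA, against 19, 12.7 and 20.2 CPM without AA, high in replicate 3 with AA alone. The cyclooxygenases, mentioned after their values were seen, were low. Ptgs1 was at 12.8, 1.41 and 7.59 CPM with AA, against 13.6, 9.08 and 6.31 CPM without AA. Ptgs2 stood at 23.8, 3.57 and 6.04 CPM with AA, against 5.98, 3.93 and 9.21 CPM without AA.

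Genes that take up, activate and store fatty acids had 2 of 25 higher and 1 lower in every library with AA (median 0.12), with 1 higher at an unadjusted p under 0.05 and 0 DESeq2 calls. Lpcat1, an enzyme that reacylates lysophospholipids, stood at 54.8, 51.7 and 29.6 CPM with AA, against 24.1, 22.3 and 21.3 CPM without AA. Fabp5, a fatty acid binding protein, stood at 162, 129.8 and 287 CPM with AA, against 832, 177 and 168 CPM without AA, with the highest value in replicate 1 without AA. Acsl6, an acyl-CoA synthetase, had counts in that library alone, at 0, 0 and 0 CPM with AA, against 0.456, 0 and 0 CPM without AA.

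Fatty acid oxidation and PPAR targets had 5 of 29 higher and 3 lower in every library with AA (median −0.06), with 1 higher at an unadjusted p under 0.05 and 0 DESeq2 calls. Acadm, the medium chain acyl-CoA dehydrogenase, stood at 104, 109 and 185 CPM with AA, against 67, 68.7 and 71.7 CPM without AA (0.94 ± 0.41). Ucp3, a mitochondrial carrier, stood at 4.97, 2.36 and 7.48 CPM with AA, against 0, 0 and 0.241 CPM without AA. Ucp2, a relative, stood on the opposite side at 826, 841 and 638 CPM with AA, against 1022, 994 and 1015 CPM without AA. Ppargc1a, the coactivator PGC-1α, stood at 12.3, 3.28 and 18.8 CPM with AA, against 1.31, 1.84 and 2.22 CPM without AA.

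Sterol and fatty acid synthesis had 0 of 34 higher and 5 lower in every library with AA (median 0.01), with 1 on each side at an unadjusted p under 0.05 and 0 DESeq2 calls. Scd1, the stearoyl-CoA desaturase, stood at 15.1, 14.4 and 1.88 CPM with AA, against 23.4, 37.5 and 211 CPM without AA (−3.11 ± 1.04), and replicate 3 without AA was far above the others. Without it the log2 fold change of Scd1 was −1.58. Fasn, fatty acid synthase, stood at 119, 53.8 and 44.9 CPM with AA, against 105, 140.4 and 119 CPM without AA. Idi1, of the mevalonate pathway, stood at 234, 145 and 122 CPM with AA, against 113, 126 and 111 CPM without AA. In αβ cells the median of this list was −0.95. LXR targets had 2 of 10 higher and 0 lower (median 0.06), with 0 at an unadjusted p under 0.05 and 0 DESeq2 calls. Nr1h2, LXRβ, stood at 432, 377 and 382 CPM with AA, against 221, 321 and 301 CPM without AA. Nr1h3, LXRα, stood at 7.79, 5.76 and 1.11 CPM with AA, against 31.6, 7.81 and 0.193 CPM without AA. Abcg1, a sterol exporter, stood at 92.5, 102 and 106 CPM with AA, against 86.2, 85.9 and 43.7 CPM without AA. Mylip, a ligase for lipoprotein receptors, stood at 28.4, 58.2 and 24.6 CPM with AA, against 50.2, 43.6 and 83 CPM without AA.

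Genes of DNA replication and mitosis lay together on the lower side. Of 34 members all had a log2 fold change below 0 (all genes 11651 of 22107). In every library with AA 0 were higher and 20 lower (all genes 4.86% and 7.08%). By an unadjusted p under 0.05, 21 were lower, DESeq2 called 1 lower, and edgeR called 0. The median was −1.01, and −0.93 without replicate 3 without AA, when 21 were lower (all genes 11.4%). Tk1, thymidine kinase, stood at 55.5, 43.3 and 43.4 CPM with AA, against 84.7, 107 and 186 CPM without AA (−1.41 ± 0.38). Ube2c, of the anaphase promoting pathway, stood at 37.2, 39.1 and 32.9 CPM with AA, against 91.2, 73.5 and 119.5 CPM without AA (−1.38 ± 0.38). Top2a, topoisomerase IIα, stood at 134, 91.2 and 73.4 CPM with AA, against 148, 239 and 244 CPM without AA (−1.08 ± 0.31). Tyms, thymidylate synthase, stood at 40, 36.9 and 29.7 CPM with AA, against 66.5, 102 and 86.7 CPM without AA (−1.26 ± 0.37). Mki67, a proliferation marker mentioned after its values were seen, overlapped at 64.2, 78.1 and 48.6 CPM with AA, against 69.5, 104 and 107 CPM without AA. In the 20 separated genes the lowest library with AA was replicate 3 in 10 and replicate 2 in 9. In αβ cells the median was −0.82, and 4 of the 34 were above 0.

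The Tyms promoter is shown as the example of a replication gene with E2F letters. It lies at chr5:30073576-30073875, minus strand.
Tyms: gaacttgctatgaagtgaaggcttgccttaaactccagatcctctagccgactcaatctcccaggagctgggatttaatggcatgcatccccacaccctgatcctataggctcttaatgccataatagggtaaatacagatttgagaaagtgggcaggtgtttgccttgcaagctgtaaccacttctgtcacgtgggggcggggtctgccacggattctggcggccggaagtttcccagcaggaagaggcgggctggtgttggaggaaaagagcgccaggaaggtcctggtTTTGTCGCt
The capitals are an E2F match that starts 42 bases after the start of the gene. Of the 34 proliferation genes 29 had an entry, and Cdc6, Cdk1, Mcm3, Mcm5, Mcm6, Mcm7 and Tyms held E2F, against 5.93% of all genes with an entry. The κB decamer was held by 4, and AP-1 and the ETS-IRF composite by 0.

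Nuclear genes of the respiratory chain had 0 of 32 higher and 10 lower in every library with AA (all genes 4.86% and 7.08%). The median was −0.41, but 0 met an unadjusted p under 0.05 and DESeq2 called 0. Ndufb10 of complex I stood at 16.2, 26 and 20.8 CPM with AA, against 56.4, 29.8 and 37.7 CPM without AA. Ndufa4, first described in complex I, stood at 17.7, 12.9 and 18.9 CPM with AA, against 62.5, 24.1 and 32 CPM without AA. Sdhc of complex II stood at 77.4, 71 and 72 CPM with AA, against 144, 105 and 85.4 CPM without AA. Uqcrc2 of complex III stood at 73.6, 71.8 and 66.5 CPM with AA, against 144, 86.7 and 97.2 CPM without AA. In each, replicate 1 without AA was the highest library. Mitochondrially encoded genes had 0 of 12 higher and 1 lower (median −0.23), with 1 lower at an unadjusted p under 0.05 and 0 DESeq2 calls. That gene was mt-Nd1, at 2017, 2042 and 1748 CPM with AA, against 3109.9, 2319 and 3011 CPM without AA (−0.54 ± 0.25), while mt-Cytb was at 3076, 3454 and 2302 CPM with AA, against 3772, 2902 and 4117 CPM without AA. The log2 fold changes of mt-Nd5 and mt-Nd4 were −0.29 ± 0.29 and −0.23 ± 0.26.

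Glycolysis and hypoxia genes had members on both sides, 3 of 25 higher and 2 lower in every library with AA (median 0.01). At an unadjusted p under 0.05, 2 were higher and 1 lower, and DESeq2 called 1 higher. Pfkfb3, which makes the activator of phosphofructokinase, stood at 512, 162 and 402 CPM with AA, against 69.8, 92.1 and 24.9 CPM without AA (2.52 ± 0.56). Ldha, lactate dehydrogenase, stood at 874, 917 and 902 CPM with AA, against 1283, 1458 and 1568 CPM without AA (−0.68 ± 0.27). Slc2a1, the glucose transporter GLUT1, stood at 148, 104 and 199 CPM with AA, against 88.8, 117 and 37 CPM without AA. Slc16a3, a lactate exporter, stood at 79.4, 83.8 and 111 CPM with AA, against 79.3, 64.5 and 38.9 CPM without AA.

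The list of ATF4, serine synthesis and stress genes did too, 2 of 25 higher and 7 lower in every library with AA (median 0.02). With an unadjusted p under 0.05, 2 were higher and 5 lower, and DESeq2 called 1 higher. Slc3a2, the heavy chain of amino acid transporters, stood at 418, 336 and 611 CPM with AA, against 227, 256 and 176 CPM without AA (1.05 ± 0.27). Psat1, of serine synthesis, stood at 138, 155 and 58.6 CPM with AA, against 209, 367 and 307 CPM without AA (−1.33 ± 0.46). Mthfd1l, of mitochondrial folate metabolism, stood at 126, 96.4 and 55.7 CPM with AA, against 136, 170.2 and 190.3 CPM without AA (−0.83 ± 0.35). Dnajb9, a chaperone of the endoplasmic reticulum, stood at 116, 64.3 and 104 CPM with AA, against 44.7, 54.4 and 31.8 CPM without AA (1.12 ± 0.41).

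Interferon response genes had 3 of 30 higher and 6 lower in every library with AA (median −0.53). By an unadjusted p under 0.05, 4 were higher and 3 lower, and DESeq2 called 1 lower. Ly6a, which encodes Sca-1, stood at 8.67, 15.2 and 4.76 CPM with AA, against 48.8, 30.3 and 44.6 CPM without AA (−2.11 ± 0.62). Gbp2, a guanylate binding protein with close relatives, stood at 255, 159.6 and 152 CPM with AA, against 72, 113 and 70.2 CPM without AA (1.15 ± 0.39). Mx1, an antiviral GTPase, stood at 68.7, 33.5 and 22.7 CPM with AA, against 8.6, 5.77 and 6.75 CPM without AA (2.56 ± 1.00). Zbp1, a sensor of nucleic acids, stood at 27.9, 40.1 and 5.93 CPM with AA, against 61.3, 83.9 and 46.9 CPM without AA (−1.38 ± 0.57).

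The lists of T cell identity and function held at most 3 separated members each. T cell gate and receptor signalling genes had 0 of 24 higher and 1 lower in every library with AA (median −0.06), with 0 at an unadjusted p under 0.05 and 0 DESeq2 calls. Without replicate 3 without AA the median was −0.42 and 7 were lower (all genes 11.4%). Lck, the proximal receptor kinase, stood at 260.3, 329 and 171 CPM with AA, against 238, 463 and 328 CPM without AA. Vav1, an exchange factor, stood at 240.3, 264 and 213 CPM with AA, against 332, 367 and 255 CPM without AA. The γδ lineage list had 1 of 15 higher and 0 lower (median −0.23), with 0 at an unadjusted p under 0.05 and 0 DESeq2 calls. Without replicate 3 without AA its median was −0.70 and 7 were lower (all genes 11.4%), and without replicate 1 without AA the median was 0.21. Id3, a regulator of γδ fate, stood at 180.3, 322 and 72.9 CPM with AA, against 372, 339 and 280.1 CPM without AA. Sox4 stood at 60.1, 49.7 and 32.9 CPM with AA, against 24.5, 35.6 and 4.82 CPM without AA. Zbtb16, which encodes PLZF, stood at 71.7, 88.3 and 109.6 CPM with AA, against 47.6, 36.1 and 55.6 CPM without AA (0.95 ± 0.65). Tcrg-C4, a γ chain constant region whose counts may be shared with its copies, stood at 197, 266 and 103 CPM with AA, against 482, 405 and 81.3 CPM without AA.

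Type 17 genes had 3 of 19 higher and 0 lower in every library with AA (median 0.24, and 0.50 without replicate 3 without AA). Without replicate 2 without AA the median was −0.01. At an unadjusted p under 0.05, 1 was higher, and DESeq2 called 0. Il17f, one of the cytokines, stood at 375, 325 and 226 CPM with AA, against 172, 131 and 47.3 CPM without AA (1.40 ± 0.52, adjusted p 0.635, edgeR), every library with AA above every library without. Il17a, the other, stood at 181, 243 and 589 CPM with AA, against 117, 128 and 311 CPM without AA (0.86 ± 0.67), and its groups overlapped, with replicate 3 the highest in each group. Stat3, the transducer of interleukin 23 signals, stood at 775, 613 and 556 CPM with AA, against 252, 410.3 and 302 CPM without AA (1.01 ± 0.48). Rora stood at 84.9, 93.2 and 63.5 CPM with AA, against 66.1, 31.9 and 39 CPM without AA.

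Type 1 genes had 1 of 20 higher and 0 lower (median 0.14), with 2 higher at an unadjusted p under 0.05 and 0 DESeq2 calls. Stat4, the transducer of interleukin 12, stood at 297, 146 and 184 CPM with AA, against 91.5, 146 and 78.9 CPM without AA (0.98 ± 0.34). Klrd1, which encodes CD94, stood at 62.9, 136 and 34.6 CPM with AA, against 251, 190.2 and 84.9 CPM without AA. Klrk1, NKG2D, stood at 83.3, 118 and 57.9 CPM with AA, against 198, 195 and 56.9 CPM without AA. Ifng, interferon γ, was low at 3.15, 4.89 and 0.111 CPM with AA, against 1.25, 7.44 and 0 CPM without AA. Tbx21, its transcription factor T-bet, stood at 21, 27 and 21.1 CPM with AA, against 17.3, 43.2 and 5.93 CPM without AA. Type 2 genes had 0 of 11 higher and 1 lower (median 0.31), with 1 lower at an unadjusted p under 0.05 and 0 DESeq2 calls. Il9r, the interleukin 9 receptor, stood at 0.386, 0 and 0 CPM with AA, against 1.77, 6.17 and 5.83 CPM without AA. Ccr8 stood at 133, 243 and 15.2 CPM with AA, against 2.45, 86.6 and 40.7 CPM without AA. Areg, amphiregulin, stood at 0, 3.4 and 0.443 CPM with AA, against 0.057, 0.204 and 0 CPM without AA. Il5 had counts in replicate 1 without AA alone, at 0, 0 and 0 CPM with AA, against 0.285, 0 and 0 CPM without AA.

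In the cytotoxicity list 2 of 20 were higher and 0 lower (median −0.08), with 1 higher at an unadjusted p under 0.05 and 1 DESeq2 call, Serpinb9. Gzmb, granzyme B, stood at 14.5, 5.02 and 10 CPM with AA, against 7.86, 28.7 and 10.6 CPM without AA. Prf1, perforin, stood at 19, 11.7 and 38.6 CPM with AA, against 27.9, 26.9 and 17 CPM without AA. Fasl stood at 5.8, 11.7 and 31.8 CPM with AA, against 13.7, 21.6 and 2.07 CPM without AA. Their groups overlapped. Srgn, the granule proteoglycan serglycin, stood at 624, 544 and 830.4 CPM with AA, against 537, 488 and 497 CPM without AA (0.39 ± 0.23). Rab27a, of granule release, stood at 202, 137 and 124 CPM with AA, against 60.4, 158 and 58.3 CPM without AA. Cst7, cystatin F, stood at 101, 92.9 and 83.5 CPM with AA, against 157, 178 and 84.5 CPM without AA. Of inhibitory and suppressive genes 2 of 24 were higher and 0 lower (median −0.35), with 0 at an unadjusted p under 0.05 and 0 DESeq2 calls. Il10, interleukin 10, stood at 6.13, 7.84 and 0 CPM with AA, against 3.08, 3.11 and 1.45 CPM without AA. Entpd1, the ectoenzyme CD39, stood at 15.6, 7.5 and 0.72 CPM with AA, against 36.1, 12.2 and 12.4 CPM without AA. Nt5e, the ectoenzyme CD73, stood at 125, 161 and 68.5 CPM with AA, against 50.2, 84.6 and 67.9 CPM without AA.

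Cytokine receptors of the common γ chain had 2 of 15 higher and 1 lower (median 0.27), with 1 lower at an unadjusted p under 0.05 and 0 DESeq2 calls. Il15ra, which presents interleukin 15, stood at 66, 30.7 and 30 CPM with AA, against 12.2, 16.2 and 0.337 CPM without AA (2.14 ± 1.03). Stat5a stood at 249.5, 158 and 251 CPM with AA, against 61.7, 172 and 77.1 CPM without AA. Cish, a target of STAT5, stood at 63.7, 55.2 and 57.7 CPM with AA, against 23.9, 44.7 and 23.6 CPM without AA (0.94 ± 0.52). Bcl2, which inhibits apoptosis, stood at 50.1, 46.5 and 49.2 CPM with AA, against 62.7, 116 and 40.3 CPM without AA, and the groups overlapped. The list of naive, memory and innate-like regulators had 2 of 18 higher and 1 lower (median 0.11), with 1 lower at an unadjusted p under 0.05 and 1 lower by DESeq2. The αβ constant regions, 3 genes, and the negative gates, 4 genes, had 0 separated members and 0 DESeq2 calls, with 1 lower negative gate at an unadjusted p under 0.05. Their medians were −0.04 and −0.65.

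Further lists were also counted without replicate 3 without AA. Leaving out a library can only add separated members, and over all genes the share lower went from 7.08% to 11.4%. Members lower in every library with AA then numbered 5 of 31 for migration and adhesion, 3 of 20 for type 1, 5 of 20 for cytotoxicity and 3 of 24 for inhibitory genes (all genes 11.4%). They numbered 3 of 15 for common γ chain receptors, 5 of 29 for fatty acid oxidation, 5 of 25 for glycolysis and 9 of 30 for the interferon response. Type 17 had 5 of 19 members higher (all genes 6.75%). The median turned to −0.01 for type 1, −0.02 for sterol and fatty acid synthesis, −0.04 for LXR targets, −0.12 for glycolysis and −0.06 for the ATF4 list, each on the other side of 0. It was 0.20 for apoptosis, 0.21 for early response genes, 0.03 for type 2, 0.15 for common γ chain receptors and 0.19 for fatty acid uptake. It was −0.15 for cytotoxicity, −0.22 for eicosanoid enzymes, −0.10 for mitochondrially encoded genes, −0.11 for NK cells and −0.35 for endothelial and stellate cells.

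**Figure D5:**
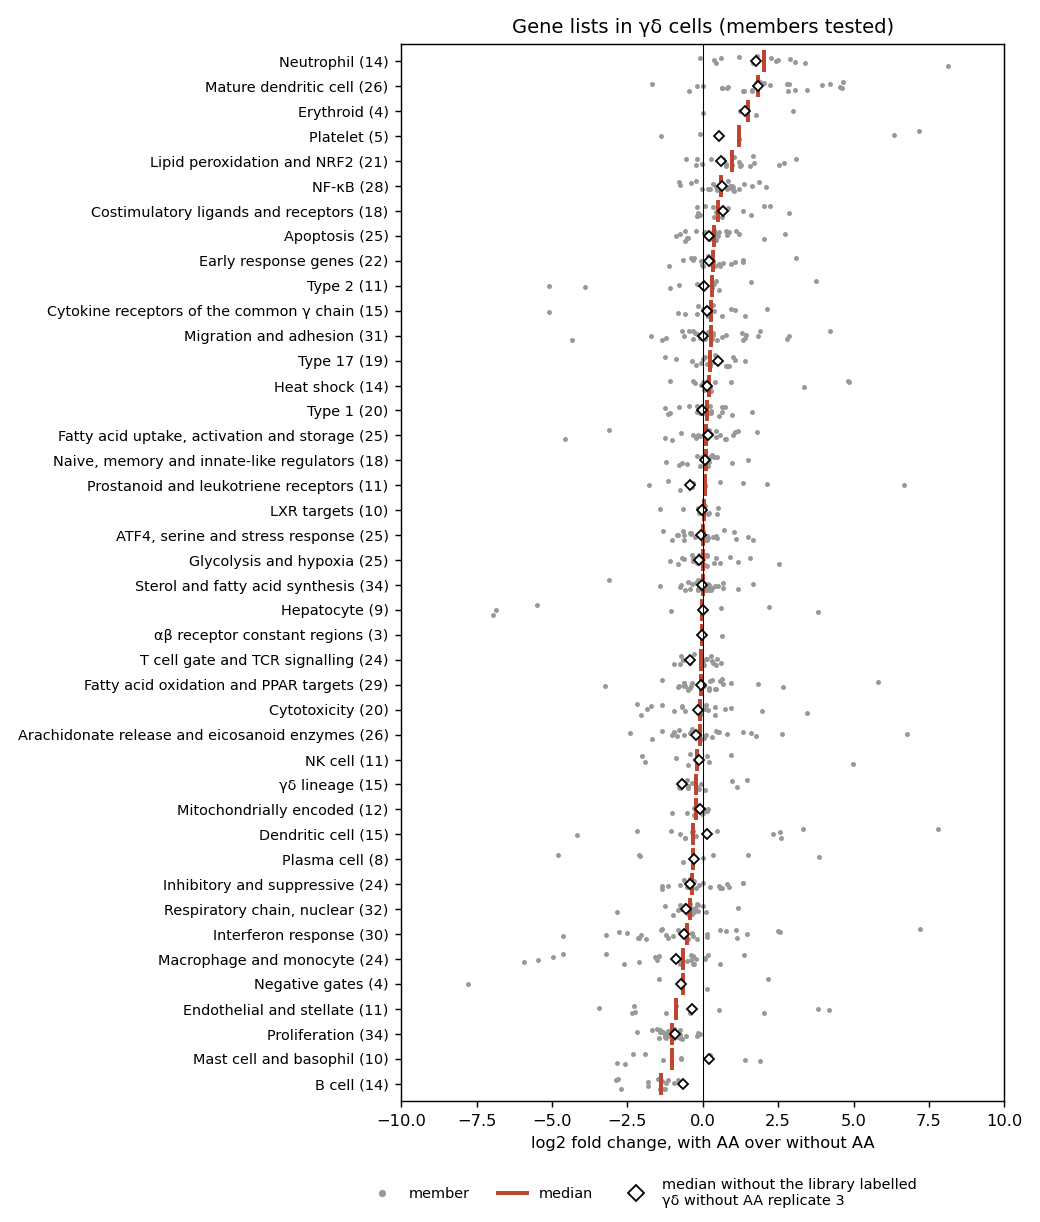
Log2 fold change with AA over without AA in γδ cells (x axis) of the members of each gene list (rows), 1 grey point per member tested, with the median as a red bar and the median without the library labelled replicate 3 of γδ cells without AA as an open diamond. The mature dendritic cell list has a median of 1.83 with and 1.82 without that library, and the mast cell list has −1.01 with and 0.19 without it.

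The last question was whether the effect of AA in γδ cells differed from that in αβ cells, tested as the γδ log2 fold change minus the αβ one. The edgeR test called 0 genes on either side, with a smallest adjusted p of 0.211. An unadjusted p under 0.05 was met by 2117 genes (9.58%), 854 with the larger value in γδ (3.86%) and 1263 with the smaller (5.71%). DESeq2 called 108 (0.489%) and 213 (0.963%). All 12 genes of smallest p on the higher side in γδ cells had an unadjusted p under 0.05 for this difference, and 7 of the 12 on the lower side did. The γδ effect by which these genes were picked is part of the difference, so a small p was largely built in.

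Marcks in αβ cells averaged 104 ± 11.1 CPM with AA and 89.7 ± 40 CPM without AA (SD, n = 3 each), a log2 fold change of 0.22, and the difference of effects was 2.64 ± 0.51 (adjusted p 0.347, edgeR). Cytip in αβ cells averaged 421 ± 62.9 CPM with AA and 467 ± 19 CPM without AA (SD, n = 3 each), and the difference was 2.04 ± 0.35 (adjusted p 0.211, edgeR). Samsn1 in αβ cells averaged 407 ± 91.9 CPM with AA and 733 ± 201 CPM without AA (SD, n = 3 each), and the difference was 2.60 ± 0.44 (adjusted p 0.211, edgeR). DESeq2 called the difference for all 3. Ramp3 in αβ cells averaged 64.5 ± 14 CPM with AA and 68.3 ± 75.2 CPM without AA (SD, n = 3 each), and Ccr7 727 ± 184 CPM with AA and 747 ± 422 CPM without AA, with log2 fold changes of −0.08 and −0.04. Of the 26 mature dendritic cell genes 19 had an unadjusted p under 0.05 with the larger value in γδ, against 3.86% of all genes, and 0 with the smaller. Of the 28 NF-κB genes 11 did, of the 21 genes of lipid peroxidation and NRF2 2, and of the 34 proliferation genes 1. These lists were chosen with earlier results of these data known, and the γδ effect is part of the difference, so the counts are descriptions.

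The αβ libraries with AA stood apart from those without. They held 6036487 to 17021782 counts with AA, against 21189619 to 30548253 without AA, and the repeat genes took 23.1% of replicate 3 with AA. The T cell gate and receptor signalling list, with a median of −1.32 in αβ cells, summed there to 0.279, 0.311 and 0.241% with AA and 0.48, 0.443 and 0.502% without AA, and the groups did not overlap. Lck in αβ cells averaged 73.7 ± 16 CPM with AA and 375 ± 29.3 CPM without AA (SD, n = 3 each), an adjusted p of 0.0377 (edgeR). The part of these shifts in the difference of effects was not tested.

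Genes with a small p for the difference included some near 0 in the αβ libraries with AA. Tbx21 in αβ cells averaged 0.0606 ± 0.105 CPM with AA and 36.6 ± 14.6 CPM without AA (SD, n = 3 each). Wdr89 stood at 12.6, 19.9 and 29.6 CPM with AA, against 18.5, 28.3 and 49.7 CPM without AA in γδ cells, and in αβ cells averaged 0.106 ± 0.184 CPM with AA and 33.4 ± 4.37 CPM without AA (SD, n = 3 each). Sema4f, a semaphorin, stood at 12.9, 16.3 and 49.5 CPM with AA, against 4.16, 13.1 and 3.37 CPM without AA in γδ cells, and in αβ cells averaged 0 ± 0 CPM with AA and 9.3 ± 5.59 CPM without AA (SD, n = 3 each). The adjusted p of these 3 differences was 0.211 (edgeR), and DESeq2 called each. On the side of the smaller value in γδ, Inhba in αβ cells averaged 9.77 ± 11.7 CPM with AA and 8.07 ± 6.15 CPM without AA and Iqgap3 34.5 ± 18.6 CPM with AA and 12.3 ± 2.31 CPM without AA (SD, n = 3 each). Inca1 stood at 0, 0 and 0.166 CPM with AA, against 9.68, 2.62 and 11.9 CPM without AA in γδ cells, and in αβ cells averaged 8.8 ± 11.6 CPM with AA and 0 ± 0 CPM without AA (SD, n = 3 each). Lrrc2 stood at 0, 0 and 0 CPM with AA, against 14.5, 1.02 and 1.21 CPM without AA. Olfr652, an olfactory receptor gene, stood at 0, 0 and 0 CPM with AA, against 2.16, 0 and 5.4 CPM without AA in γδ cells. Against a floor of 3 counts over the group with AA they were at least 95.5-fold and 47-fold lower there. Most of the Lrrc2 counts without AA came from replicate 1, and Olfr652 had none in replicate 2.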

How the data were processed

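RNA of sorted γδ and αβ double negative T cells of the mouse liver was sequenced from TruSeq libraries, from 1 µg of RNA each, per the labels' protocols. As deposited by the authors, the values are whole read counts of genes in 12 libraries. Reads were aligned with Bowtie 0.12.2 to mm8, per the submitters' processing notes. Which program, annotation and strand setting gave the counts is not stated in the labels. Among the Ensembl IDs 55141 matched a gene symbol and 260 did not.

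Groups were taken from the titles, 3 libraries in each of 4 groups. Counts were tested with edgeR 4.0.16 (R 4.3.3) by quasi-likelihood in 1 model of all 12 libraries with a mean per group, TMM scaling and a filter at a minimum count of 10. The residual degrees of freedom were 8 and the common biological coefficient of variation 1.21. Benjamini-Hochberg adjusted p-values cover all 22107 genes, with a threshold of 0.05. The difference of effects is the γδ log2 fold change minus the αβ one in this fit. The steps were also run on simulated data. The spread between those libraries was set below that of these data, so the run does not show how many changes are missed here.

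Alternatives were DESeq2 1.42.0, limma 3.58.1 voom with quality weights, robust dispersions, other scalings and filters, the groups compared alone, a replicate block and leaving out libraries. A pair of them was chosen after seeing the data, the groups compared alone without replicate 3 without AA, and leaving out the repeat genes Gm10800 and Gm21738. Members and the 42 gene lists were chosen with earlier results of these data known. Of 761 list genes 756 matched the table and 720 passed the filter. Named genes are those called, those called without the libraries labelled replicate 3 without AA, the 12 of smallest p in each direction that had a symbol, at least 5 CPM in the higher group and no overlap, up to 4 per list by p, 5 per direction for the difference of effects, and marker genes of the sort and of T cell function. A few genes that this rule names are not reported here. Genes with no count in a group are bounded by a floor of 3 counts over the group. Counting intervals cover counting error only.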

Additional observations from a re-analysis of the deposited data

How the results depend on the processing

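The count of genes called higher with AA, 2 in edgeR, was 86 with no filter on low counts, 189 with DESeq2, 12 with voom and quality weights and 5 without the libraries labelled replicate 3 without AA of both populations. It was 3 in the fit of only the groups compared, Strip2, Ramp3 and Clu, with neither Marcks nor Cytip among them. In that fit without replicate 3 without AA it was 0. Leaving out 1 library at a time gave 0 to 7. It was 0 without replicate 1 or 3 with AA, and without replicate 1 or 3 without AA. The count of genes called lower, 0 in edgeR, was 60 with no filter, 90 with DESeq2 and 9 with voom, and 0 to 1 when 1 library was left out. For the difference of effects the counts of 0 and 0 were 124 and 93 with no filter and 108 and 213 with DESeq2, and leaving out 1 library gave 0 to 48 with a higher effect in γδ cells, 48 without αβ replicate 2 with AA and 1 without αβ replicate 2 without AA, and 0 with a lower one in every case. The unfiltered fit tested 44233 genes in place of 22107. The number of genes with no overlap between groups was 1492 higher and 2521 lower without replicate 3 without AA, against 1075 and 1565. The same genes and levels were compared there, so leaving out a library could only keep or raise this number. The cause of the shifts in the counts of genes called was not tested.

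Replicate numbers were shared between groups. Deviations from the group mean correlated at −0.0355, 0.137 and 0.0616 in same-numbered γδ libraries, against −0.160 to 0.0779 in differently numbered ones. So few pairs cannot show whether same-numbered libraries shared an animal or a batch. With the replicate block 0 genes were called higher and 0 lower.

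Over 192 named genes and 4530 alternative values, 4315 kept direction and side of the threshold, 17 no longer passed, 115 newly passed and 83 changed sign. With voom the log2 fold change was Hspa1a −0.19, Hbb-bs −1.38, Nr1h3 0.38, Klra8 0.0674, Hba-a1 −2.46, Fasl −0.0522, Trdc 0.67, Trbc1 0.0313, Klrb1c −3.65, Ifng 1.58 and Cd3e 0.14. Without the libraries labelled replicate 3 without AA of both populations the log2 fold change was Klra8 3.45, Fasl −0.15, Klrb1c −0.0651 and Tbx21 −0.43. With the replicate block the log2 fold change was Hba-a1 −0.55, Fasl −0.35, Klrb1c −0.16 and Ifng 0.79. In the fit of the groups compared without replicate 3 without AA the log2 fold change was Fasl −0.059, Trbc2 0.0627 and Tbx21 −0.36. With DESeq2 size factors the log2 fold change was Trbc1 0.0257, Trbc2 0.0317, Prf1 0.0384 and Cd3e 0.0454. In the fit of the groups compared the log2 fold change was Trbc1 0.00665, Trbc2 0.011, Prf1 0.00696 and Cd3e 0.0288. With DESeq2 the log2 fold change was Trbc1 0.0257, Trbc2 0.0317, Prf1 0.0384 and Cd3e 0.0454. With a filter of 5 CPM in 3 libraries the log2 fold change was Trbc2 0.00304, Prf1 0.0136 and Cd3e 0.0197. Scaled by library size alone the log2 fold change was Cd3e 0.0195. Without the repeat genes the log2 fold change was Cd3e 0.0153. With 1 library left out at a time, the genes that changed sign ranged from −0.0561 to 1.75 for Pla2g6, −1.78 to 5.89 for Rgs5, −1.44 to 0.17 for Fabp5, −3.45 to 4.51 for Hbb-bs, −2.06 to 0.29 for Nr1h3, −3.08 to 0.99 for Pf4, −5.49 to 3.52 for Klra8, −4.41 to 6.56 for Cd4, −3.34 to 2.64 for Alas2, −1.04 to 0.018 for Gzmb, −3.88 to 1.82 for Hba-a1, −0.86 to 0.95 for Lyz2, −0.48 to 1.00 for Fasl, −0.79 to 0.21 for Trdc, −0.30 to 0.14 for Trbc1, −0.34 to 0.16 for Trbc2, −1.57 to 0.76 for Klrb1c, −0.43 to 0.94 for Tbx21, −0.89 to 2.07 for Ifng, −0.60 to 0.20 for Prf1 and −0.35 to 0.30 for Cd3e. None of these passed the threshold.

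The depth of 18301268 to 24145149 counts leaves genes of a few counts, such as Hba-a1 and Gp9, with little precision, and the spread between libraries sets the limit elsewhere. Of 881 alternative list medians 36 moved beyond the spread, and in 23 of 42 lists the median changed sign under at least 1 alternative. Of 82 shares 1 did.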
